A study of Mus musculus with 123 samples.

Results

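Peaks of histone H3 lysine 4 methylation were examined at 4 loci of neural development, Pax6, Sox1, Olig2 and Nes, in 3 peak lists of mouse embryonic stem cells. Members were all peaks that overlapped a fixed mm9 window around each gene by at least 1 bp. That rule uses coordinates and no measured value, but the windows were chosen with earlier results of these data known. The windows were chr2:105495000-105545000 for Pax6 (50 kb), chr8:12380000-12440000 for Sox1 (60 kb), chr16:91215000-91240000 for Olig2 (25 kb) and chr3:87765000-87795000 for Nes (30 kb). They held 36 peaks of the 60226 in the lists: 14 of 26292 in ES1, 16 of 21543 in ES2 and 6 of 12391 in ES3.

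The series profiled single cells by droplet barcoding followed by chromatin immunoprecipitation and sequencing, in 123 libraries, 86 with an H3K4me2 antibody and 37 with an H3K4me3 antibody. Cells were V6.5 embryonic stem cells (mESC) grown in serum with the cytokine LIF, embryonic fibroblasts (MEF) bought from Globalstem, and EML, a line of blood progenitors, and no treatment or time course is labelled. Some libraries held mESC alone, some pooled mESC with MEF or EML in separate ranges of barcodes, and others held MEF alone, MEF with EML, or a mix of mESC and MEF. The labels do not tie ES1, ES2 or ES3 to a library, a mark or a number of cells, so they are read from their names as sets of stem cells and each is a single list with no replicate. A list pools cells, so a signal in fewer cells and a weaker signal in each cell cannot be told apart. The identity of the cells was not checked against stem cell markers, because no gene annotation of mm9 was used here.

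Pax6, Sox1 and Olig2 encode transcription factors of the early nervous system. Pax6 is a paired-box and homeodomain factor of eye and forebrain, Sox1 an HMG-box factor of the neural plate, and Olig2 a basic helix-loop-helix factor of motor neuron and oligodendrocyte precursors. Nes encodes nestin, an intermediate filament protein that marks neural progenitors and is not itself a regulator. In embryonic stem cells, promoters of silent developmental regulators are known to carry methylated H3K4 together with the Polycomb mark H3K27me3, a state called bivalent, and methylated H3K4 is typical of promoters rich in CpG.

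The sequences before the annotated starts are shown because methylated H3K4 is typical of CpG-rich promoters and the loci differed in CpG content. Whether a list holds H3K4me2 or H3K4me3 is not labelled, and a link between CpG content and the peaks was not tested. RefSeq matched 4 of 4 genes with 5 starts. Each run below gives the 250 bases before a start, 5′ to 3′ on the plus strand, with every CpG in capitals. Positions are of the GRCm38.p6 build and cannot be set against the mm9 peaks, so no peak is assigned here to a promoter, exon or intron. Pax6 start 1 lies at chr2:105668646-105668895 and start 2 at chr2:105682213-105682462, Sox1 at chr8:12395269-12395518, Olig2 at chr16:91225300-91225549 and Nes at chr3:87970843-87971092.
Pax6 start 1: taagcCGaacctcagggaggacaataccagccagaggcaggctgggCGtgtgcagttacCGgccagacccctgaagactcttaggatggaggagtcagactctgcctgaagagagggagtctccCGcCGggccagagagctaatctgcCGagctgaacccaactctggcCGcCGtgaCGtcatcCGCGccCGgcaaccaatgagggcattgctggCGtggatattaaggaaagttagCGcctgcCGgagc
Pax6 start 2: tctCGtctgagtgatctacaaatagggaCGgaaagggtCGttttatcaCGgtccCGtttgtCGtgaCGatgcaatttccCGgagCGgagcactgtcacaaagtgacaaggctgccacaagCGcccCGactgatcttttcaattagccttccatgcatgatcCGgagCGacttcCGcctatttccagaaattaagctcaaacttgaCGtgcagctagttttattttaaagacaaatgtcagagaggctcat
Sox1: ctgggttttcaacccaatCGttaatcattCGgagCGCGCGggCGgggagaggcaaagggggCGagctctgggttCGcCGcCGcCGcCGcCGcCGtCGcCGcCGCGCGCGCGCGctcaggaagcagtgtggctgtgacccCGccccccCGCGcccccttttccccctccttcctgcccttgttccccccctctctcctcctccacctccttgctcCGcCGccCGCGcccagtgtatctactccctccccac
Olig2: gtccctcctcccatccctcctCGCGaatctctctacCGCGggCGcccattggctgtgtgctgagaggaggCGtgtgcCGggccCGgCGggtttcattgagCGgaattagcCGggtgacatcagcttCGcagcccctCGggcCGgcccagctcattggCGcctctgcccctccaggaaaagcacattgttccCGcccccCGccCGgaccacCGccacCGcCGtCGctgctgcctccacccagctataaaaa
Nes: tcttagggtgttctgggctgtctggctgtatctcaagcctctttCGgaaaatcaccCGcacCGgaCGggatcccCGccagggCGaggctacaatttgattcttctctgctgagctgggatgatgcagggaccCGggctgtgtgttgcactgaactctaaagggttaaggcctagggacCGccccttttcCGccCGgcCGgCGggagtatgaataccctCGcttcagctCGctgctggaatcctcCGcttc

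The Sox1 run was the richest, with 29 CpG and a GC content of 71.2%. Of the 32851 promoter runs of the same length in the RefSeq table, 6.78% held at least as many CpG. Olig2 followed with 22 CpG and 66.8% GC, a count that 14.8% of all runs reached. Both Pax6 starts and Nes held 15 CpG each, which 27.3% of runs reached, against a median of 6 over all runs. Their GC content was 60.8% and 47.6% for the Pax6 starts and 58.8% for Nes. On either strand, the letters TATAAA occurred in the Olig2 run alone and CCAAT in the runs of Olig2, Sox1 and Pax6 start 1. TATAAA was present in 12.4% of all runs and CCAAT in 33.8%.

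As deposited, ES1 and ES2 covered similar lengths of these loci and ES3 covered less. Over the 4 windows, of 165 kb in all, peaks covered 43.3 kb (26.2%) in ES1, 41.8 kb (25.3%) in ES2 and 15.5 kb (9.41%) in ES3. ES1 covered 1.03 times as many bases as ES2 here, against 1.37 times over the whole lists. It covered 2.79 times as many as ES3, against 2.80 times over the whole lists, while ES2 covered 2.69 times as many as ES3, against 2.05 times over the whole lists. These totals depend on list length. With ES1 and ES2 shortened to the 12391 peaks with the most reads, ES1 kept 6 peaks and 17929 bp at the 4 windows, close to the 6 peaks and 15532 bp of ES3. ES2 kept 11 peaks and 37205 bp, so in this ranking ES1 and ES2 were no longer alike. Reads were counted in an inner interval of each peak only. It made up 41.3% of the length of the ES1 peaks here, 67.5% for ES2 and 93.5% for ES3. Ranking by reads can therefore drop wide ES1 peaks that were counted over a short interval. Ranked by score, ES1 kept 6 peaks and 21532 bp and ES2 9 peaks and 19490 bp, again similar lengths.

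**Figure D1:**
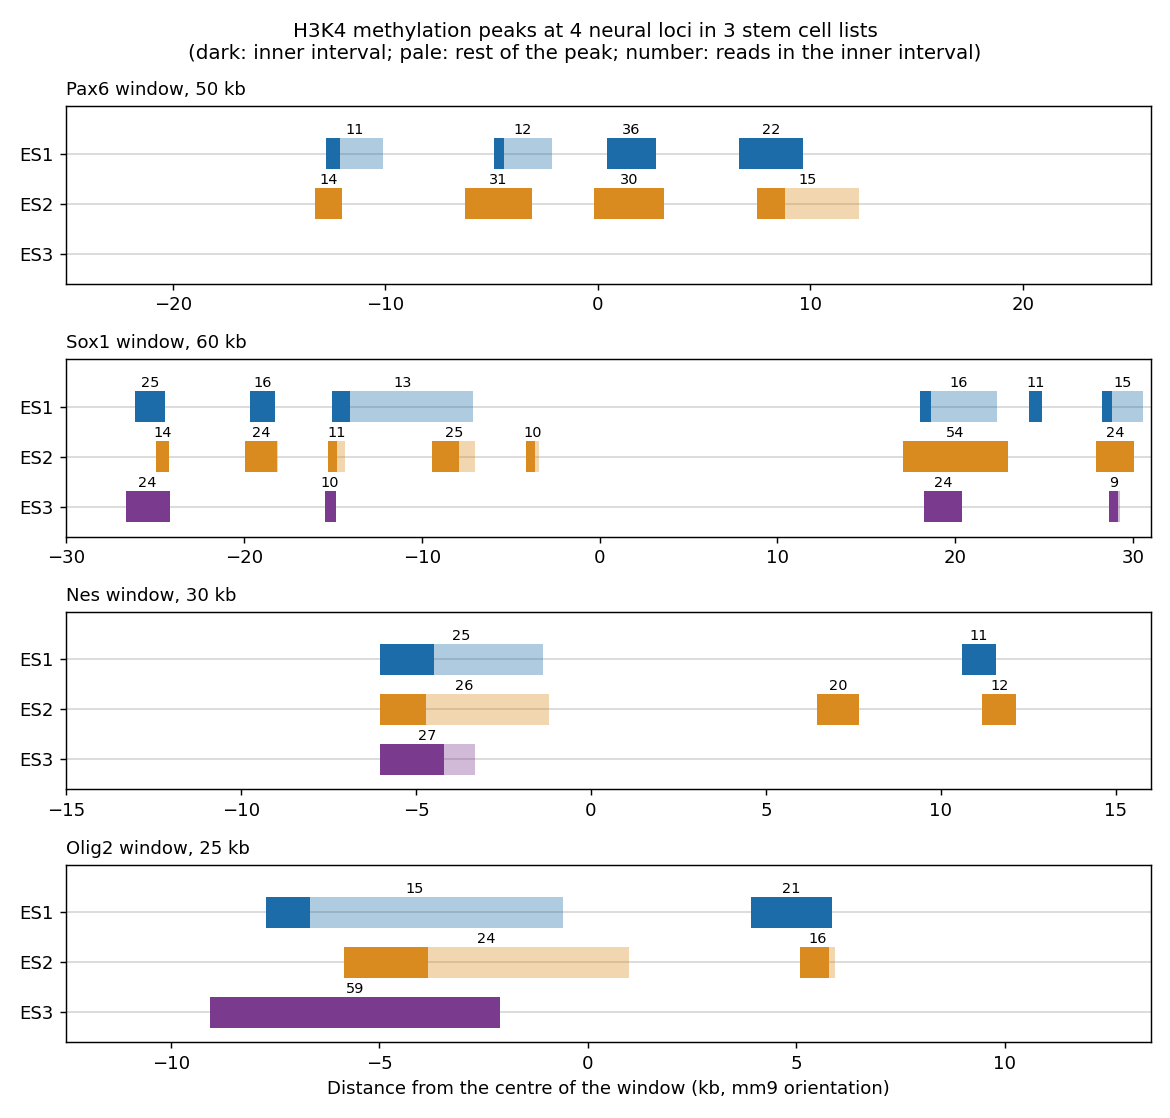
Peaks of each list at the 4 windows, by distance from the window's centre in kb, with the inner interval dark, the rest of the peak pale and the reads of the inner interval printed above. ES3 has no peak at Pax6, 4 at Sox1, 1 at Nes and 1 at Olig2. Each of these 6 overlaps a peak of ES1 and of ES2, as do 86.6% (ES1) and 77.1% (ES2) of all ES3 peaks.

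**Figure D2:**
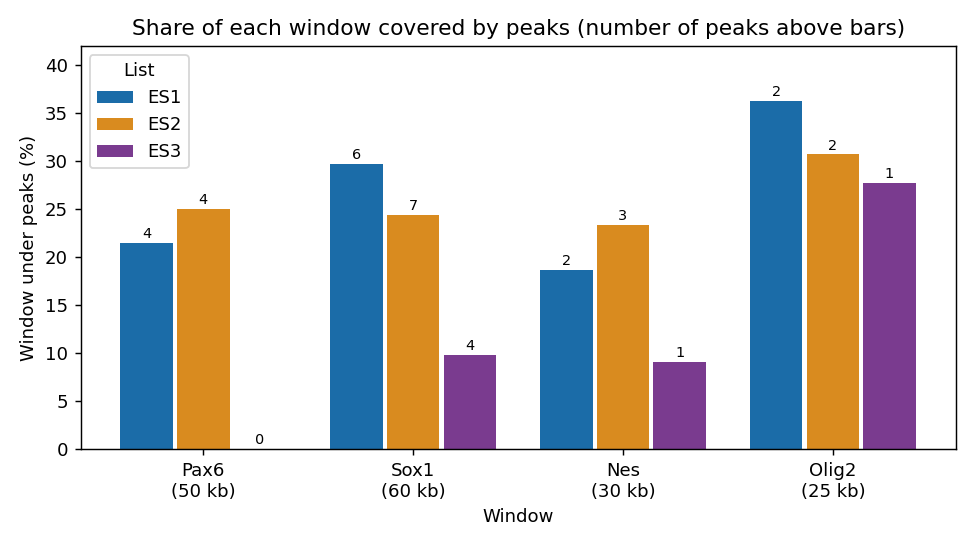
Percent of each window under peaks (bars from 0) for ES1, ES2 and ES3, with the number of peaks above each bar. ES3 ranges from 0% at Pax6 to 27.7% at Olig2, while ES1 ranges from 18.7% to 36.3% and ES2 from 23.4% to 30.7%.

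In the lists as deposited, how far ES3 fell short was uneven among the loci. Relative to ES3, ES1 covered 1.31 times as many bases at Olig2, 2.05 times at Nes and 3.04 times at Sox1, and Pax6 had no ES3 peak. For ES2 the ratios were 1.10 at Olig2, 2.57 at Nes and 2.50 at Sox1, against 2.05 over the whole lists. With lists of equal length by reads, ES1 covered 6042 bp at Sox1 against 5867 bp in ES3. At Olig2 the direction turned by reads, with 1951 bp in ES1 against 6937 bp in ES3. By score it did not turn, and ES1 covered 7134 bp at Olig2 and 6059 bp at Sox1, against the same ES3 lengths. The ES1 peak of 7134 bp had 15 reads in an inner interval of 1061 bp, where 16 were needed to stay in the list by reads. With 1 list per name there is no error for these ratios and no test of their differences.

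At Pax6, ES1 and ES2 each had 4 peaks and ES3 had none. Of 52731 tiles of 50 kb that divide the chromosomes, 25.9% held an ES1 peak, 22.6% an ES2 peak and 15.1% an ES3 peak. The ES1 peaks covered 10750 bp of the window (21.5%), more than in 97.1% of these tiles, and the ES2 peaks 12478 bp (25.0%), more than in 98.8%. Tiles without any peak count among these, so the place of a window is high wherever several peaks lie together.

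The Pax6 peaks of ES1 and ES2 formed 4 matched pairs along the window. The first pair spanned chr2:105506712-105509913, with 11 reads (95% Poisson interval 5.49 to 19.7) in the 683 bp inner interval of ES1 and 14 (7.65 to 23.5) in the 1251 bp of ES2. A read here is a unit recovered from the deposited score. The inner interval is the part of the peak that the score describes, and it began at the left edge of every peak in all 3 lists. Reads in the rest of a peak, to the right of this interval, are unknown. The second pair, chr2:105513770-105517835, held 12 reads (6.20 to 21.0) over 500 bp in ES1 and 31 (21.1 to 44.0) over 3123 bp in ES2.

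The third pair, chr2:105519826-105523110, had the most counted ES1 reads of the locus, 36 (25.2 to 49.8) over 2323 bp, and 30 (20.2 to 42.8) over 3285 bp in ES2. This ES1 peak was counted over its whole length, the first and second ES1 peaks over 25.1% and 18.3% of theirs. The fourth, chr2:105526664-105532297, held 22 reads (13.8 to 33.3) over 2972 bp in ES1 and 15 (8.40 to 24.7) over 1312 bp in ES2. By counted reads, the Pax6 peaks were spread over both lists. From left to right they had more reads than 15.3%, 23.3%, 89.1% and 70.8% of all ES1 peaks, and than 36.2%, 87.5%, 86.5% and 43.1% of all ES2 peaks. By score they stood above 51.6%, 82.3%, 48.8% and 0.924% of ES1 peaks, and above 20.2%, 9.74%, 4.59% and 22.3% of ES2 peaks. Gaps between successive peaks were 5188, 2580 and 3925 bp in ES1 and 5807, 2933 and 4368 bp in ES2. Since the pairs were matched by overlap, similar gaps are not a separate sign of likeness. Of the bases covered by ES1, 65.5% were also covered by ES2, and these 7041 bp made up 56.4% of the bases of ES2. Read density over the inner intervals was 12.5 reads per kb (9.93 to 15.5) for the ES1 peaks and 10.0 (8.07 to 12.3) for those of ES2, and these intervals overlapped.

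Depth of the lists could only be inferred here. Taking the recovered unit as the mean spacing of reads on a chromosome is an assumption that was not tested. Under it, mean density on chromosome 2 was 1.14 reads per kb in ES3, 1.07 in ES1 and 1.22 in ES2. ES3 was likewise no lower than ES1 on the chromosomes of Sox1 (1.11 in ES3 and 1.10 in ES1), Olig2 (0.855 and 0.843) and Nes (0.783 and 0.736). ES2 stood above ES3 on each of these chromosomes, with 1.22, 0.949 and 0.853. The fewest reads behind any ES3 peak on chromosome 2 were 9, and the 4 ES1 peaks at Pax6 held 11 to 36. Whether depth bears on the missing ES3 peaks was not tested. Among all 19578 ES1 peaks with 11 to 36 reads, 35.1% met an ES3 peak. Of the 942 tiles of 50 kb with at least 4 ES1 peaks and 4 ES2 peaks, 32 (3.40%) had no ES3 peak. Both of these shares were chosen after the Pax6 values were seen. With the longer lists shortened to the length of ES3, the window held 2 ES1 and 3 ES2 peaks when ranked by reads, and 1 ES1 and 0 ES2 peaks when ranked by score. Signal below the threshold of a list is not recorded, so the ES3 level at Pax6 is unknown and is not shown to be 0.

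The stretch without an ES3 peak reached far beyond the Pax6 window. It ran from chr2:105239227 to 109517376, or 4.28 Mb, and 66 of the 12371 distances between successive ES3 peaks of a chromosome were longer. The median distance was 32.8 kb. Within it lay 9 ES1 peaks and 8 ES2 peaks, of which the Pax6 window held 4 and 4. The other 5 ES1 peaks had 11 to 24 reads and the other 4 ES2 peaks 10 to 22, no more than the strongest Pax6 peaks. In ES1 the nearest peaks beyond the window were 38.5 kb to the left and 199 kb to the right, and in ES2 255 kb and 988 kb. The coding neighbours of Pax6 in the RefSeq gene order are Rcn1 and Elp4.

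Sox1 was marked in all 3 lists, in 2 groups of peaks apart from each other. ES1 had 6 peaks, ES2 had 7 and ES3 had 4, where 28.3%, 25.0% and 17.0% of 43938 tiles of 60 kb held any peak of these lists. The ES1 peaks covered 17841 bp (29.7% of the window), those of ES2 14664 bp (24.4%) and those of ES3 5867 bp (9.78%), more than in 98.7%, 98.9% and 97.8% of tiles. A stretch without a peak separated the groups, 20471 bp long in ES2, 25161 bp in ES1 and 33117 bp in ES3.

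The left group of Sox1 held the widest single peak of the 4 loci. ES1 had 1 peak of 7891 bp at chr8:12394967-12402857, wider than 96.2% of ES1 peaks, but its inner interval of 1000 bp held 13 reads (6.92 to 22.2). ES2 had a peak of 939 bp with 11 reads (5.49 to 19.7) at the left end of this domain and a separate peak of 2421 bp with 25 reads (16.2 to 36.9) at its right end. The ES3 peak, chr8:12394529-12395154, was 626 bp wide with 10 reads (4.80 to 18.4). All 3 lists shared 188 bp at the left end of the domain, where the ES3 peak ended. ES1 and ES2 reached nearly the same right end, at 12402857 and 12403013, but ES2 left 4912 bp uncalled between its peaks.

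Smaller Sox1 regions lay on either side of that domain. At chr8:12383330-12385819 the ES3 peak was the widest of the 3, at 2490 bp with 24 reads (15.4 to 35.7), against 1686 bp with 25 (16.2 to 36.9) in ES1 and 718 bp with 14 (7.65 to 23.5) in ES2. The region chr8:12390028-12391929 was found in ES1, with 16 reads (9.15 to 26.0), and in ES2, with 24 (15.4 to 35.7), and not in ES3. To the right, ES2 alone had a peak of 730 bp with 10 reads (4.80 to 18.4) at chr8:12405887-12406616.

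In the right group of Sox1, the region chr8:12427088-12432975 was widest in ES2 and, over the inner intervals, densest in ES1. The ES2 peak there was 5888 bp wide with 54 reads (40.6 to 70.5), more reads than 96.9% of ES2 peaks. The ES3 peak was 2136 bp wide with 24 reads (15.4 to 35.7), and the ES1 peak 4356 bp wide with 16 reads (9.15 to 26.0) in 658 bp. Reads of the lists come from inner intervals of different lengths, and per kb they were 9.17 in ES2 (6.89 to 12.0), 11.2 in ES3 (7.20 to 16.7) and 24.3 in ES1 (13.9 to 39.5). The ES1 interval lay above that of ES2, but the ES1 value covers the left 658 bp of its peak and the ES2 value all 5888 bp.

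The last Sox1 region, chr8:12437935-12440571, was narrowest in ES3, whose peak of 615 bp held 9 reads (4.12 to 17.1) in 500 bp, the fewest of the 36 peaks. The ES1 peak there held 15 reads (8.40 to 24.7) in 563 bp and the ES2 peak 24 (15.4 to 35.7) in 2162 bp. Per kb the order was another, with 26.6 (14.9 to 43.9) for ES1, 18.0 (8.23 to 34.2) for ES3 and 11.1 (7.11 to 16.5) for ES2, and the intervals overlapped. The ES1 and ES2 peaks cross the window's right edge. Between these regions ES1 alone had a peak of 751 bp with 11 reads (5.49 to 19.7) at chr8:12434148-12434898. Over the whole window, ES3 shared 78.8% of its covered bases with ES1 and 66.2% with ES2, and ES1 and ES2 shared 10965 bp, or 61.5% of ES1 and 74.8% of ES2.

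Olig2 was the locus that ES3 covered most fully. Its 1 ES3 peak, chr16:91218456-91225392, was 6937 bp wide with 59 reads (44.9 to 76.1) and was called along its whole length as an inner interval. At least as wide were 1.24% of ES3 peaks, and 0.855% had at least as many reads. By score this peak stood above only 24.4% of ES3 peaks. In ES1 the matching peak, chr16:91219781-91226914, was 7134 bp wide with 15 reads (8.40 to 24.7) in 1061 bp. In ES2, chr16:91221657-91228484, it was 6828 bp wide with 24 reads (15.4 to 35.7) in 2027 bp. The 3 peaks were thus of nearly equal width and were shifted against each other by up to 3201 bp at the left edge and 3092 bp at the right, with 3736 bp common to all.

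A second Olig2 region, chr16:91231420-91233439, was found in ES1 and ES2. It held 21 reads (13.0 to 32.1) over 1951 bp in ES1 and 16 (9.15 to 26.0) over 682 bp in ES2. This ES2 peak stood above 95.1% of ES2 peaks by score and above 49.6% by reads. Read density over the window was lowest in ES3, at 8.51 reads per kb (6.47 to 11.0). It was 12.0 (8.37 to 16.5) for the ES1 peaks and 14.8 (10.5 to 20.1) for those of ES2, and the intervals overlapped. Covered length was 9085 bp (36.3%), 7664 bp (30.7%) and 6937 bp (27.7%). These lengths exceeded those of 98.6%, 98.9% and 99.6% of 105468 tiles of 25 kb, of which 18.0%, 15.2% and 9.51% held a peak of ES1, ES2 and ES3. Beyond the window, the nearest peak to the right was 22.7 kb away in ES1, 30.0 kb in ES2 and 29.6 kb in ES3, and the next coding gene on that side in the RefSeq order is Olig1, which encodes a related factor.

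At Nes the 3 lists shared a left edge almost to the base. The first peak began at chr3:87773979 in ES1, 87773964 in ES2 and 87773965 in ES3, a range of 15 bp. It was 4641 bp wide in ES1 and 4828 bp in ES2, and 2728 bp in ES3, where it ended 2099 bp short of the ES2 peak. Reads were nearly equal, 25 (16.2 to 36.9) over 1543 bp in ES1, 26 (17.0 to 38.1) over 1316 bp in ES2 and 27 (17.8 to 39.3) over 1830 bp in ES3. The counted interval was longest in ES3, and reads in the rest of the ES1 and ES2 peaks are unknown. Of the ES3 peak, 99.5% of the bases lay in the ES1 peak and 100% in the ES2 peak.

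The rest of the Nes window differed between the lists. ES2 alone had a peak at chr3:87786466-87787674, of 1209 bp with 20 reads (12.2 to 30.9), and the region chr3:87790610-87792164 held few reads in both longer lists, with 11 (5.49 to 19.7) for ES1 and 12 (6.20 to 21.0) for ES2. ES3 had no peak in either place, on a chromosome where its smallest peak held 8 reads. The 2 ES1 peaks covered 5605 bp (18.7%), the 3 ES2 peaks 7018 bp (23.4%) and the ES3 peak 2728 bp (9.09%), more than in 96.0%, 98.3% and 97.0% of 87886 tiles of 30 kb. Of these tiles, 19.8%, 16.9% and 10.8% held a peak of ES1, ES2 and ES3. Just outside the window, within 0.171 kb of its left edge, ES1 had a peak with 11 reads and ES3 one with 12, which the rule leaves out. The coding neighbours of Nes in the RefSeq order are Crabp2 and Bcan.

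**Figure D3:**
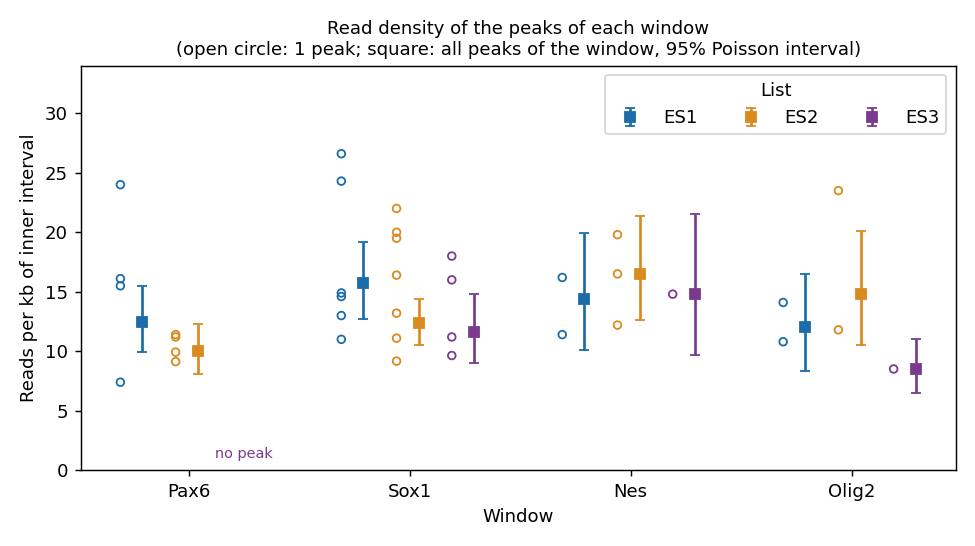
Reads per kb of inner interval for each peak (open circles) and for all peaks of a window together (squares, with exact Poisson 95% intervals for counting error), by window and list. Within each window the intervals of the lists overlap, which does not show equal densities, and ES3 has no value at Pax6.

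In the lists as deposited, read density in the peaks was highest in ES1 and lowest in ES3, but differed less between lists than covered length did. Over the 4 windows ES1 peaks held 13.8 reads per kb of inner interval (12.1 to 15.6), ES2 peaks 12.4 (11.1 to 13.7) and ES3 peaks 10.5 (8.93 to 12.3). The whole lists stood at 12.6, 12.5 and 12.0. With lists of equal length by score, densities at the windows were 17.8 in ES1, 16.7 in ES2 and 10.5 in ES3. Covered lengths were then 21532, 19490 and 15532 bp. Intervals that overlap do not show that densities were equal. Inner intervals made up 93.5% of the length of the ES3 peaks here, 67.5% for ES2 and 41.3% for ES1, so most called bases of ES1 have no density.

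In the lists as deposited, most peaks of ES1 and ES2 at these loci met each other. Of the 14 ES1 peaks, 13 met an ES2 peak (92.9%, exact binomial 95% interval 66.1 to 99.8), against 61.1% of all ES1 peaks, and of the 16 ES2 peaks, 14 met an ES1 peak (87.5%, 61.7 to 98.4), against 78.1%. Peaks of a locus are neighbours and not independent. The ES1 peaks here were also wider than the list, with a median of 2522 bp against 1684 bp, and the part of width in the overlap was not tested. Where at least 50% of both peaks had to be shared, 50.0% of the ES1 members met an ES2 peak, against 37.7% of all ES1 peaks. With lists of equal length by score, 50.0% of the 6 remaining ES1 peaks met an ES2 peak.

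For ES3 the intervals of the shares included those of the whole lists. An ES3 peak met 6 of the 14 ES1 peaks (42.9%, 17.7 to 71.1), against 37.7% of all, and 6 of the 16 ES2 peaks (37.5%, 15.2 to 64.6), against 42.7%. Of the 13 ES1 peaks that ES2 shared, ES3 met 6, and over the whole list it met 51.7% of such peaks. In the other direction, each of the 6 ES3 peaks met an ES1 peak and an ES2 peak (100%, 54.1 to 100, for each), against 86.6% and 77.1% over the whole list. No ES3 peak at these loci stood alone, and regions of ES3 alone were only 2.97% of all merged regions.

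**Figure D4:**
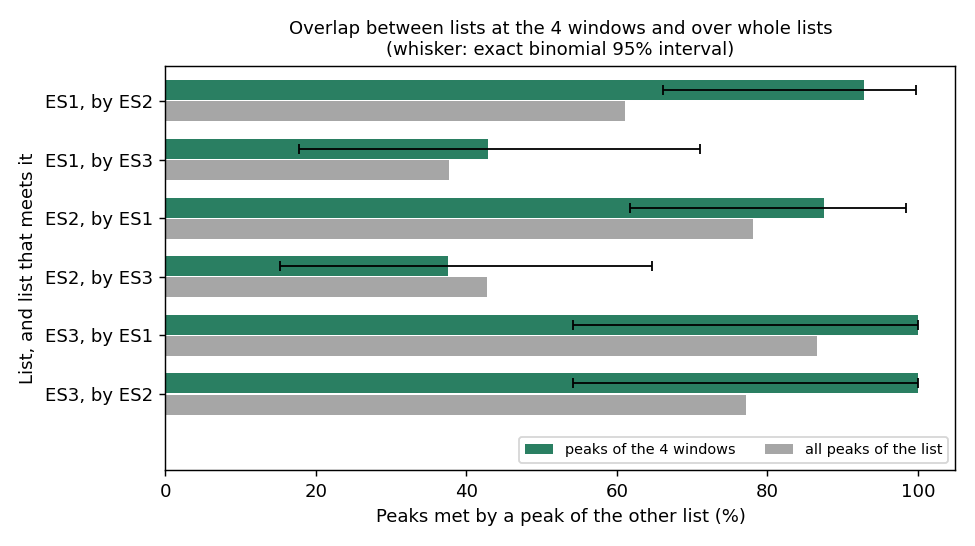
Percent of the peaks of 1 list that met a peak of another, for the peaks of the 4 windows (green, with exact binomial 95% intervals) and for all peaks of the list (grey). ES1 peaks met by ES2 stand at 92.9% in the windows and 61.1% over the list, and the interval lies above the share of the list. In the other 5 comparisons the interval includes that share. Neighbouring peaks are not independent, so the intervals are no test. Where at least 50% of both peaks had to be shared, 50.0% of ES1 peaks in the windows met ES2, against 37.7% of all. With lists of equal length by score, 50.0% of the 6 remaining ES1 peaks met ES2.

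Merging the lists gave 16 regions at the 4 loci. All 3 lists held 6 of them, ES1 and ES2 without ES3 held 7, ES2 alone 2 and ES1 alone 1. Over the 31580 merged regions of the genome these classes made up 26.2%, 23.8%, 12.8% and 27.3%. No region was in ES3 alone, in ES1 and ES3, or in ES2 and ES3, classes that made up 2.97%, 4.95% and 2.05% of all regions. The regions of ES1 and ES2 without ES3 included all 4 at Pax6 and 1 each at Sox1, Nes and Olig2, and 4 of the 6 regions in all lists lay at Sox1. These counts moved with list length. At equal lengths, ranked by reads and by score, ES1 with ES2 held 3 and 1 regions, all lists 2 and 2, ES1 with ES3 1 and 2, and ES2 with ES3 2 and 2. Ranked by reads, ES3 alone held 1 region and ES1 alone 0, and ES2 alone held 4 in both rankings.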

How the data were processed

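The deposited data used here were 3 peak lists with a score per peak. Bowtie and the mm9 build are named per the submitters' processing notes, without a version. The sources used here name no peak caller, and no mark or library for a list. For 100% of peaks, the deposited score multiplied by inner interval length gave whole multiples (tolerance 0.001) of a unit that is fixed within a chromosome of a list. These multiples were taken as reads, which assumes that 1 unit is 1 read, and whether duplicates were removed is not known. Start positions were converted to count from 1.

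The members, the windows and the comparisons were chosen with earlier results of these data known. All 4 loci and all merged regions in their windows were eligible to be named. Covered length was clipped to the windows. Tiles of each window's width ran up to the last peak of each chromosome. Intervals are exact at 95% and cover counting error only. No list has a replicate, so no test was run. Alternatives were lists of equal length by reads or by score, peaks wholly inside a window, windows widened by 10 kb, peaks within 1 kb merged, unclipped peaks, overlap of 50% of both peaks, and other sets of tiles. Python 3.11.15, pandas 2.3.3, NumPy 2.4.6 and SciPy 1.17.1 were used, and the code was tested on simulated data. Other neural genes and stem cell genes were not analysed here.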

Additional observations from a re-analysis of the deposited data

How the results depend on the processing

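Of 109 values recomputed under the alternatives, 75 stayed within their interval or within 1.5 times the original count and 34 did not, and most of the latter came from lists of equal length. With 12391 peaks per list ranked by reads, the windows held 6 ES1 peaks over 17929 bp. Ranked by score, they held 6 ES1 peaks over 21532 bp and 9 ES2 peaks over 19490 bp, the densities rose to 17.8 reads per kb in ES1 and 16.7 in ES2, and 50.0% of the ES1 peaks met ES2. Ranking by score favours dense peaks by construction, since the score is a read density multiplied by the unit of its chromosome. In ES2 this unit was 820 bp per read on chromosome 2 and 1172 on chromosome 3. An equal density thus scored lower at Pax6 than at Nes. The rule of 50% of both peaks also gave 50.0%. At Pax6, ranking by reads left 2 ES1 and 3 ES2 peaks, and ranking by score left 1 ES1 peak and 0 ES2 peaks, so ES3 was then not the only list without one.

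Merged regions with lists of equal length, by reads and by score, numbered 3 and 1 for ES1 with ES2, 2 and 2 for all lists, 4 and 4 for ES2 alone, 1 and 2 for ES1 with ES3, and 2 and 2 for ES2 with ES3. By reads there were 0 for ES1 alone and 1 for ES3 alone. Windows widened by 10 kb on each side held 8 regions of ES1 with ES2, 7 of all lists and 3 of ES2 alone, against 7, 6 and 2. They also held 1 region of ES1 with ES3, a class that was empty before. Among tiles with a peak in at least 1 list, covered length exceeded that of 89.9% (ES1) and 95.9% (ES2) at Pax6, of 95.7%, 96.4% and 92.9% (ES1, ES2, ES3) at Sox1, of 82.3%, 92.4% and 86.5% at Nes and of 93.4%, 94.7% and 98.2% at Olig2.

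No paired analysis was possible because peaks come from single lists without numbered replicates and nothing was tested. Peaks rest on as few as 9 reads at these loci, and absence from a list does not show that a region lacked the mark.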
